A study of Mus musculus with 15 samples.

Results

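Complement is a set of blood and tissue proteins that mark targets for uptake and call in leukocytes. The genes described here are 9 of the 54532 genes in a poly-A RNA sequencing table of the mouse left ventricle, taken by gene name: C1qa, C1qb and C1qc, C4b, C3, Cfb, Serping1, C3ar1 and C5ar1. All 9 were found. Of these, 8 reached at least 1 FPKM (fragments per kilobase of gene scaled to library depth, the authors' unit) in at least 5 of the 15 libraries and entered the tests, while Cfb did not.

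The mice were female C57BL/6JRj, 12 to 18 weeks old, and the tissue was taken 8 days after surgery. The Sham group had the surgical control and the MI group the left descending coronary artery tied off for good, which causes a myocardial infarction; both were given vehicle, 20% Captisol. The GSK group was given GSK-343, an inhibitor of the histone methyltransferase EZH2, at 20 mg/kg in the same vehicle, injected into the abdomen from 6 h after surgery and then daily to day 7. Its sample names give the compound only, and it was taken as infarcted from the treatment protocol; no sham-operated mice under GSK-343 were analysed here. Each group had 5 libraries, which the protocol calls independent mice; the names of Sham replicates 1 and 2 carry 2 numbers each and the word mixed, and were taken as RNA of 2 animals. GSK replicates 1 and 2 have names with G and GSK replicates 3 to 5 names with S, the letter of all other libraries. Which zone of the infarcted ventricle was sampled is not given in the sources used here.

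In the classical pathway, C1q is the recognition molecule that binds to antibodies, dying cells or other surfaces; it is built from A, B and C chains, the products of C1qa, C1qb and C1qc. Proteases attached to it cleave C4 and C2, and the product cleaves C3, the protein on which all the pathways meet; factor B, encoded by Cfb, drives the amplifying alternative pathway, and the C1 inhibitor, encoded by Serping1, stops the first proteases. The small fragments C3a and C5a act on leukocytes through the receptors encoded by C3ar1 and C5ar1. Tissue macrophages are a known source of C1q, whereas most circulating complement proteins come from the liver.

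Depth was 21.5 M to 26.8 M gene-assigned fragments per library. The FPKM were scaled by a different total, 20.9 M to 28.0 M, so that a single fragment on 1 kb of gene gives 0.0357 to 0.0478 FPKM. This total was below the assigned fragments in every Sham library, in MI replicate 4 and in GSK replicates 3 and 4. It was above them in the other MI and GSK libraries, such as 28.0 M against 23.9 M in MI replicate 2. Cardiomyocyte markers were high in every library (summed level of 6 genes from 8720 to 17850 FPKM) and hepatocyte markers were near 0 (5 genes, summed level 0.346 to 1.70 FPKM, with Serpina1a and Fga at 0 throughout). Mitochondrially encoded transcripts took 41.2% to 42.2% of the FPKM total in Sham. They took 40.6% in MI replicate 4, 46.4% in GSK replicate 3 and 48.7% in GSK replicate 4, against 23.2% to 27.6% in the other MI and 31.8% to 32.7% in the other GSK libraries. Below, the counts of called members and the members' differences between GSK and MI are given with and without these 3 libraries; the values of single further genes are given with them.

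The 3 C1q genes lie together on chromosome 4, all on the minus strand: C1qb (ENSMUSG00000036905, 136880129 to 136886187 on mm10), C1qc (ENSMUSG00000036896, 136889804 to 136893065) and C1qa (ENSMUSG00000036887, 136895917 to 136898803), with 3616 bases between C1qb and C1qc and 2851 between C1qc and C1qa. Upstream sequence is shown for 3 genes on which the results turn, C1qb and C3ar1, which rose in MI, and C3, which did not pass the test. Each line holds the 250 bases before the RefSeq gene start (GRCm38.p6, minus strand, 5′ to 3′), at chr4:136886201-136886450, chr6:122856158-122856407 and chr17:57228137-57228386. Capitals mark matches to 7 motifs searched on both strands: GAGGAAG (PU.1), TTNNGCAA (C/EBP), TTCNNNGAA (STAT), TGANTCA (AP-1), TGCTGAC (MARE), NF-kB and ISRE.
C1qb: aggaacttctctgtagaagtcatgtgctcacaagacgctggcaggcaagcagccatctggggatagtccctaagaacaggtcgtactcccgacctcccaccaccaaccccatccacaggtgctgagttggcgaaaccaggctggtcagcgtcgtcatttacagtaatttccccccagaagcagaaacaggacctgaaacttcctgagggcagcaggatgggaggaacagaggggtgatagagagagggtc
C3ar1: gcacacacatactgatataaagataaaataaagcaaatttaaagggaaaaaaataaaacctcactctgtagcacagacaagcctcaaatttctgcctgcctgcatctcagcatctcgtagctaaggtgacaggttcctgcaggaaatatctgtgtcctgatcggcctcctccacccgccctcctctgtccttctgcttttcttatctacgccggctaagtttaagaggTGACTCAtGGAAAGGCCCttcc
C3: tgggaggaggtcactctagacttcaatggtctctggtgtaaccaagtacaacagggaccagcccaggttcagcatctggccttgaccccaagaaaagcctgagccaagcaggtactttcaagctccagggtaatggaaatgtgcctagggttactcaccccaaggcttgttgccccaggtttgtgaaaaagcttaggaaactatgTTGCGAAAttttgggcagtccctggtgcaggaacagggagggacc
The C3ar1 window held an AP-1 match, TGACTCA, at positions -22 to -16 before the start, and an NF-kB match, GGAAAGGCCC on the other strand, at -14 to -5. The C3 window held a C/EBP match, TTGCGAAA on the other strand, at -45 to -38. Among 32851 promoter windows of this length, 6.75% hold an AP-1 match, 1.41% an NF-kB match and 9.56% a C/EBP match. None of the 7 motifs matched in the C1qb window, which says only that these letters are not there; no binding was measured. RefSeq start entries were found for 5 of the 9 members. Of the other windows searched, that of C1qc, which also rose in MI, held a PU.1 match (10.6% of all windows hold one). The match was CTTCCTC on the other strand, at -194 to -188. The C5ar1 window held none of the 7. By the deposited coordinates the C1qc and C5ar1 windows lie partly inside their genes, which reach up to 136893065 (C1qc) and 16259540 (C5ar1). These windows span chr4:136892915-136893164 and chr7:16259339-16259588. The C3ar1 window, from 122856158 on, also lies partly inside its gene, which reaches up to 122856161.

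In MI hearts 7 of the 8 tested complement genes rose and 0 fell relative to Sham, at an adjusted p under 0.05 from limma. Over all 12585 genes tested, 21.9% were called higher (2757 genes) and 21.9% lower (2758); with mitochondrial genes left out and totals equalised these were 3302 and 1903 genes. The median log2 difference was 1.24 over the 8 genes, against -0.02 over all genes. The 5 MI libraries lay wholly above the 5 Sham libraries for 6 of the 8 genes, which 15.7% of all genes did. The exceptions were C4b, which passed the test with overlapping libraries, and C3, which did not pass. The count of 7 was the same without the 3 libraries of high mitochondrial share. All log2 differences are on the log2(FPKM + 1) scale, which understates changes of low genes. In ventricular tissue of mixed cells, a change in the number of cells of a type and a change in RNA per cell cannot be told apart.

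**Figure D1:**
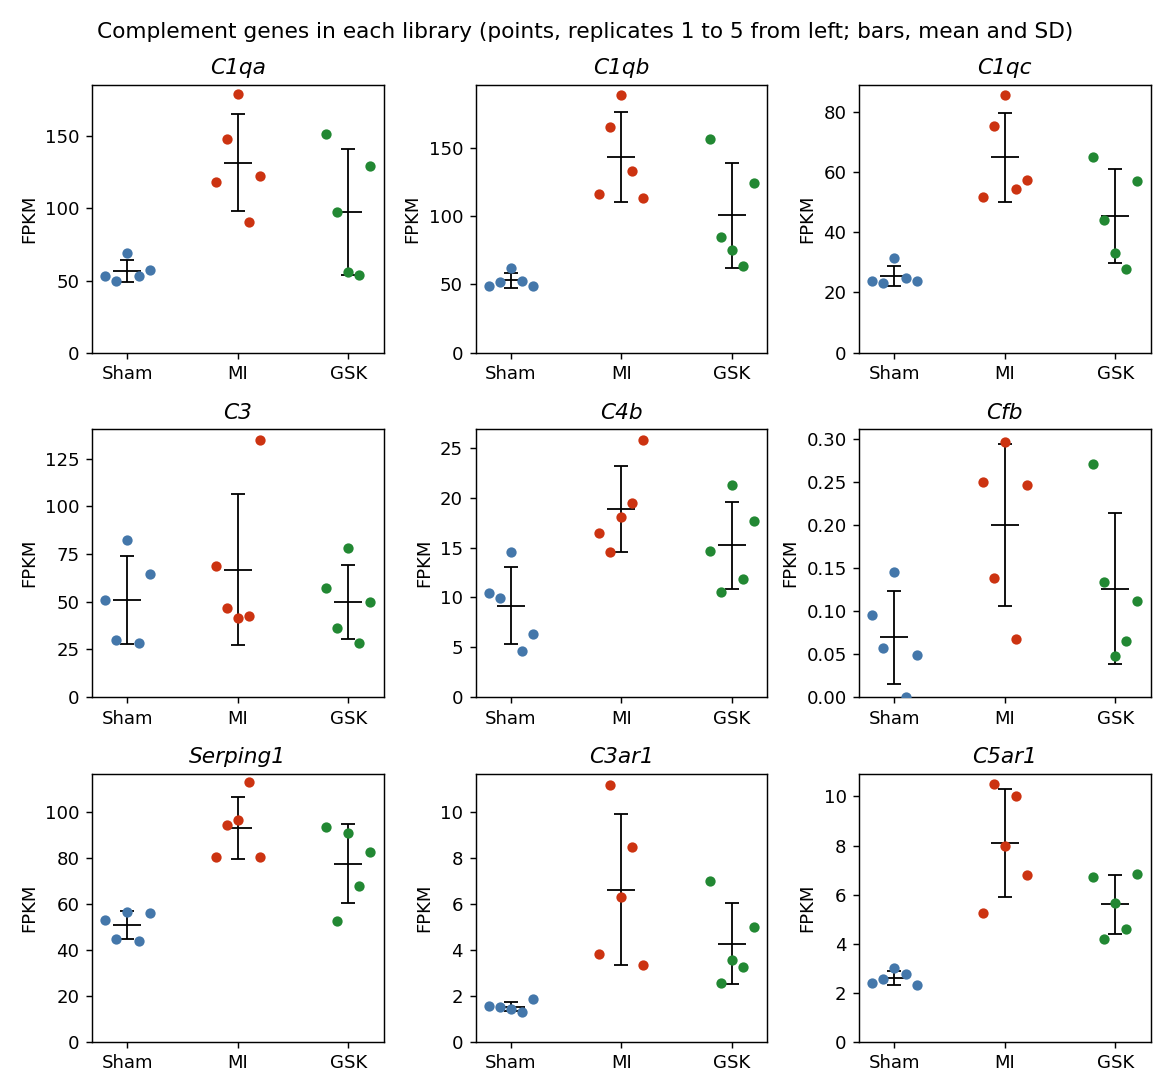
FPKM of the 9 complement genes (vertical axes, each from 0) in the 5 libraries of Sham, MI and GSK, with the group mean and SD as bars. MI points lie above all Sham points for the 3 C1q genes, Serping1, C3ar1 and C5ar1, while C3 points of the 3 groups overlap, with MI replicate 5 at 135 FPKM above all others.

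C1qb stood at 49.1, 52.0, 62.3, 52.4 and 49.1 FPKM in Sham replicates 1 to 5 and at 116, 166, 189, 133 and 113 FPKM in the MI replicates. Every MI library was above every Sham library, and MI replicates 2 and 3 were the highest. The means were 53.0 ± 5.44 and 143 ± 32.8 FPKM (SD, n = 5), a log2 difference of 1.40 ± 0.22 (SE; limma adjusted p = 0.000183). C1qa was at 52.9, 49.9, 69.2, 53.1 and 57.3 FPKM in Sham and at 118, 148, 179, 90.5 and 123 FPKM in MI. Its groups did not overlap either, with MI replicate 4 nearest to Sham (log2 difference 1.18 ± 0.26, limma adjusted p = 0.00237). C1qc, at 23.9, 23.2, 31.5, 24.7 and 24.0 FPKM in Sham, reached 51.8, 75.4, 85.8, 54.3 and 57.3 FPKM in MI (1.30 ± 0.21, limma adjusted p = 0.000251). With these levels C1qb and C1qa were abundant transcripts of the ventricle, ranked 266 and 294 of 12585 by mean FPKM in MI and 751 and 714 in Sham.

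The 3 chains kept nearly fixed proportions in most libraries. Per length, C1qa was at 0.961 to 1.17 times C1qb in the Sham libraries and at 2.15 to 2.39 times C1qc. The lowest proportions of C1qa were in the 3 libraries of high mitochondrial share: 0.680 times C1qb in MI replicate 4, 0.745 in GSK replicate 3 and 0.849 in GSK replicate 4, while the other MI and GSK libraries had 0.898 to 1.15. The proportion to C1qc was 1.67, 1.69 and 1.94 in those 3 libraries and 1.97 to 2.39 in all others. The Sham libraries had mitochondrial shares of 41.2% to 42.2%. The part of the mitochondrial share in these proportions was not tested. Between MI and Sham the log2 ratio of C1qa to C1qb differed by -0.21 (exact permutation p = 0.103, adjusted p = 0.619 over 18 ratio tests between members).

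**Figure D2:**
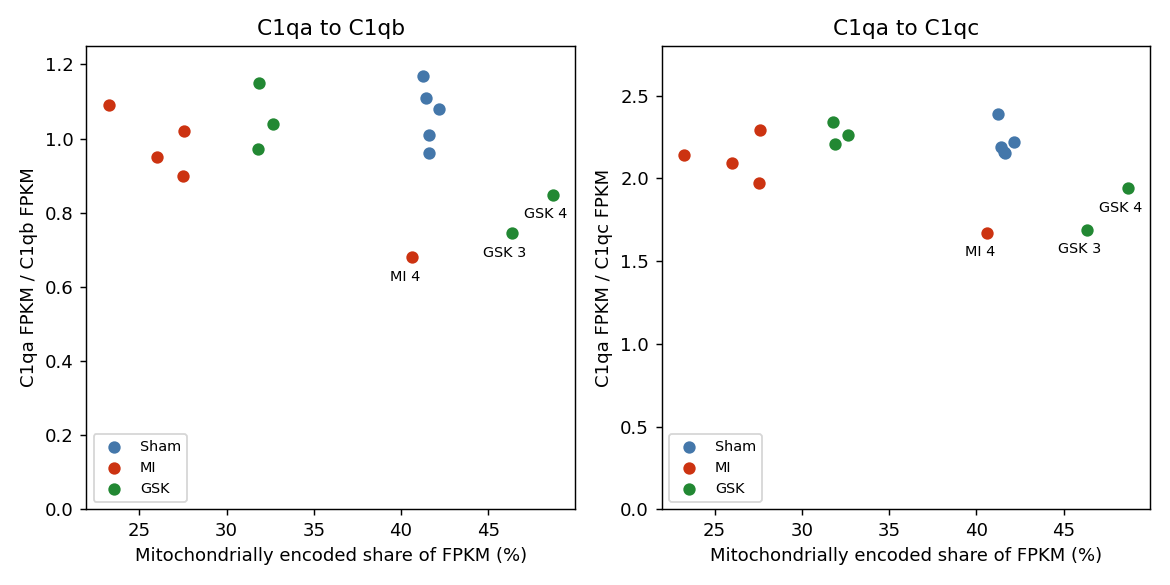
Ratio of C1qa to C1qb FPKM (left) and of C1qa to C1qc FPKM (right) in each of 15 libraries against the share of FPKM from mitochondrially encoded genes in percent, colored by group. MI 4, GSK 3 and GSK 4 have the lowest ratios in both panels (0.680, 0.745 and 0.849 on the left), and the Sham libraries, at 41.2% to 42.2%, lie with the rest.

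The receptor genes had the largest ratios of MI to Sham means among the members. C3ar1 (ENSMUSG00000040552, chromosome 6, 122847138 to 122856161), which encodes the receptor for C3a, was at 1.55, 1.504, 1.43, 1.29 and 1.83 FPKM in Sham and at 3.81, 11.1, 6.28, 8.46 and 3.32 FPKM in MI. All MI libraries were higher, but they spread over 3.32 to 11.1 FPKM, with replicates 1 and 5 lowest (log2 difference 1.49 ± 0.26 SE, limma adjusted p = 0.000434). The ratio of the group means was 4.34. C5ar1 (ENSMUSG00000049130, chromosome 7, 16246743 to 16259540), the receptor for C5a, was at 2.38, 2.57, 3.002, 2.752 and 2.33 FPKM in Sham and at 5.26, 10.5, 7.97, 10.03 and 6.79 FPKM in MI (1.30 ± 0.16, limma adjusted p = 3.88e-05; ratio of means 3.11). MI replicates 2 and 4 were the highest for both receptors. The ratio of C3ar1 to C5ar1 differed by 0.18 on the log2 scale between MI and Sham (exact permutation p = 0.357, adjusted p = 0.8 over 18 tests).

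Serping1 (ENSMUSG00000023224, chromosome 2, 84765387 to 84775444), which encodes the C1 inhibitor, stood at 53.0, 44.9, 56.6, 44.0 and 56.3 FPKM in Sham. In MI it stood at 80.5, 94.6, 96.7, 113 and 80.6 FPKM. The groups did not overlap and MI replicate 4 was highest, the MI library in which C1qa was lowest (log2 difference 0.85 ± 0.15 SE, limma adjusted p = 0.000539).

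C4b (ENSMUSG00000073418, chromosome 17, 34728380 to 34743882), which encodes the C4 that C1 proteases cleave, was at 10.5, 9.92, 14.6, 4.60 and 6.37 FPKM in Sham and at 16.4, 14.6, 18.0, 19.5 and 25.8 FPKM in MI. The highest Sham and the lowest MI library met at 14.6 FPKM (log2 difference 1.03 ± 0.25 SE, limma adjusted p = 0.00411). Its near-identical paralog C4a was at or under 0.170 FPKM in every library; how fragments shared by the pair were counted is not given, so the C4b value is uncertain.

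C3 (ENSMUSG00000024164, chromosome 17, 57203970 to 57228136), the central component, did not pass. It stood at 50.8, 30.0, 82.2, 28.2 and 64.7 FPKM in Sham and at 68.7, 46.6, 41.6, 42.6 and 135 FPKM in MI. The groups overlapped, and MI replicate 5 was far above the other MI libraries. The log2 difference was 0.34 ± 0.37 (SE, limma adjusted p = 0.468), with a 95% interval from -0.44 to 1.12 that holds the 1.03 measured for C4b. Without MI replicate 5 the difference was 0.05. In Sham and MI, C3 varied within the group more than the C1q genes did: its SD was 45.1% of the mean in Sham, 59.3% in MI and 38.7% in GSK, against 10.3%, 22.9% and 38.2% for C1qb.

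Cfb (ENSMUSG00000090231, chromosome 17, 34856374 to 34862518), the protease subunit of the alternative pathway, was barely detected. Its levels were 0.0957, 0.0569, 0.145, 0 and 0.0493 FPKM in Sham, on 0 to 9 fragments a library, and 0.250, 0.139, 0.297, 0.0677 and 0.247 FPKM in MI, on 4 to 23 fragments. The groups overlapped. In GSK it was at 0.271, 0.134, 0.0483, 0.0659 and 0.112 FPKM. Without the filter on low values, its MI against Sham log2 difference was 0.16 ± 0.06 (SE, limma adjusted p = 0.0789). The annotated gene Gm20547 overlaps Cfb on the same strand and is listed at 0 in every library; how fragments that fall in both were counted is not given, so the level of Cfb is uncertain and the part of the overlap was not tested.

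The members did not all vary together within groups. After group means were removed, Pearson's r over the 15 libraries was 0.886 to 0.960 between the C1q genes and 0.849 between C3ar1 and C5ar1. It was 0.652 between C3 and C4b, and 0.132, -0.025 and 0.083 between C3 and C1qa, C1qb and C1qc. These are descriptions across libraries that share their preparation and scaling, without a test.

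By the same measure before group means were removed, genes near to C1qb outside the pathway were Marcksl1 (r = 0.985), Spi1 (0.983), Rac2 (0.981) and Txndc5 (0.981), with r from 0.924 to 0.943 after removal. Nearest to C3ar1 were Arpc5 (0.987), Cd44, Lox, Ikzf1 and Tlr13, and nearest to C5ar1 was Serpina3n (0.985). Serping1 was nearest to Pdgfc (0.957) and C4b to the chemokine gene Ccl8 (0.917; 0.873 after removal). C3 had no neighbour as close. Its nearest genes were Nkain4 (0.835), Gpc3 (0.8), Ahcy (0.79), Lrrn4 (0.778) and Upk3b (0.778).

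Since Upk3b and Lrrn4 are known markers of mesothelium, the cell layer that covers the heart, 7 mesothelial markers (with Msln, Upk1b, Wt1, Krt19 and Krt8, chosen after these values were seen) were set beside C3. Their summed level was 2.99 to 12.6 FPKM in Sham, 9.91 to 35.8 in MI and 2.87 to 29.2 in GSK, and 7 of 7 passed the filter on low values. MI replicate 5, which had the highest C3, also had the highest sum, and Sham replicates 2 and 4 and GSK replicate 4, with C3 at 28.2 to 30.0 FPKM, had the 3 lowest sums (2.87 to 5.30 FPKM). Other libraries did not follow this order: Sham replicate 3 had the second highest C3 (82.2 FPKM) at a sum of 12.6 and GSK replicate 3 78.0 FPKM at 8.44, while MI replicate 1 and GSK replicate 1, with the next highest sums (31.4 and 29.2), had C3 at 68.7 and 57.1 FPKM. Upk3b and Lrrn4 were in the list because they were near to C3, so their part of the sum is no independent value. The part of these cells in the C3 values was not tested.

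**Figure D3:**
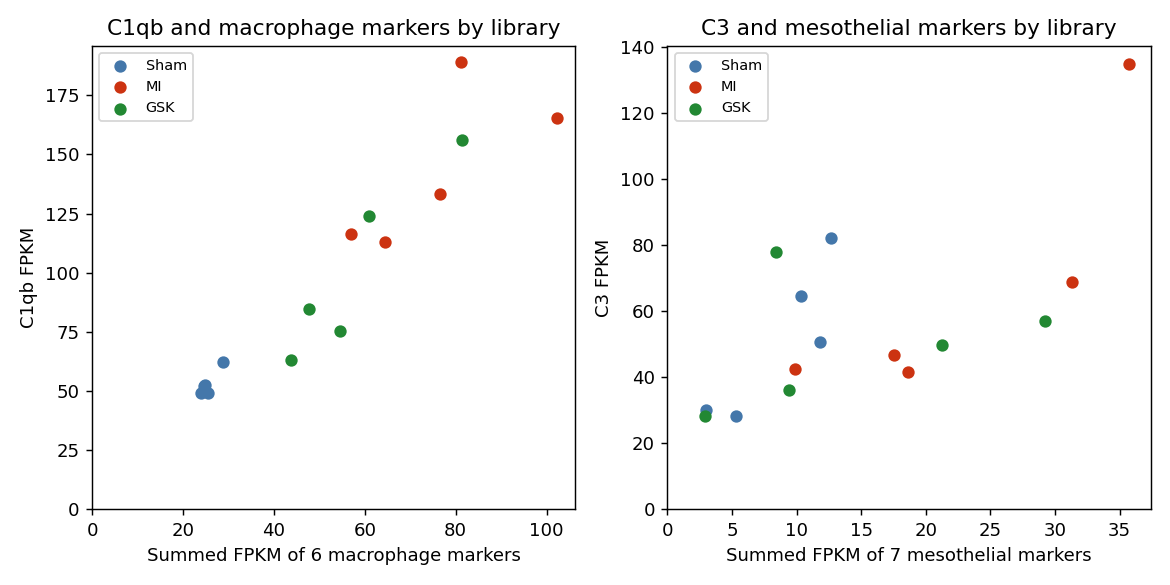
Left, C1qb FPKM against the summed FPKM of 6 macrophage markers; right, C3 FPKM against the summed FPKM of 7 mesothelial markers, with 1 point for each of the 15 libraries, colored by group. C1qb and the macrophage sum are lowest in the Sham libraries, at 23.9 to 28.8 FPKM of the sum, and the 135 FPKM of C3 in MI 5 falls at the highest mesothelial sum.

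Most macrophage and monocyte markers moved with the C1q and receptor genes. Of 15 markers, 14 were tested, and 12 were called higher and 0 lower in MI (median log2 difference 1.04). The tested markers that were not called, Lyve1 and Timd4, had lower means in MI (log2 difference -0.41 and -0.20). None was at 0 in every library. Their summed level was 198 to 236 FPKM in Sham, 377 to 661 in MI and 316 to 654 in GSK. The 6 used as a reference rose by 0.37 (Mertk), 0.83 (Aif1), 0.98 (Csf1r), 1.29 (Adgre1), 1.44 (Fcgr1) and 2.36 (Cd68) on the log2 scale. This wide range held the differences of C1qa, C1qb, C1qc, C3ar1 and C5ar1, and also those of Serping1 (0.85) and C4b (1.03). The fibroblast markers Lum and Tcf21 (0.76 each) lay within it too, so it does not set the C1q and receptor genes apart. Set against the mean log2 level of the 6 reference markers in the same library, C1qa was at 3.69 ± 0.14 in Sham and 3.66 ± 0.31 in MI (SD, n = 5, exact permutation p = 0.841). The ratio of C1qb to them was higher in MI by 0.18 (exact permutation p = 0.0317, adjusted p = 0.171 over 27 ratio tests to markers), that of C1qc by 0.09 (exact permutation p = 0.389), of C3ar1 by 0.28 (exact permutation p = 0.246) and of C5ar1 by 0.09 (exact permutation p = 0.476). None of these 5 passed after adjustment. With a pseudocount of 0.1 in place of 1, the differences of C1qb and C1qc turned to -0.04 and -0.12, and without the 3 libraries of high mitochondrial share that of C1qa, -0.03, turned to 0.08.

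Fibroblast markers did not move in 1 direction: 4 of 8 were called higher and 1 lower in MI. Relative to the mean log2 level of 6 of them (Pdgfra, Dcn, Lum, Tcf21, Dpt and Gsn), the Sham libraries had Serping1 at -0.15 ± 0.17, the MI libraries at 0.68 ± 0.14 and the GSK libraries at 0.24 ± 0.16 (SD, n = 5). The 5 libraries of each group did not overlap between MI and either other group (exact permutation p = 0.00794 for both, the smallest 5 against 5 can give; adjusted p = 0.0714 over 27 tests). At least 5 of the 27 ratios would have to reach that smallest p for any to pass after adjustment, so a ratio that did not pass is not shown to be alike between groups. C4b relative to the same genes was higher in MI than in Sham by 1.00 (exact permutation p = 0.00794, adjusted p = 0.0714). C3 differed by 0.31 (exact permutation p = 0.516), and by -0.01 without Gsn, which itself fell by 1.57 in MI. Without Gsn, an alternative chosen after its fall was seen, the differences between MI and Sham were 0.50 for Serping1 and 0.68 for C4b (exact permutation, adjusted p = 0.107 and 0.214). Markers of neutrophils, cells that carry C5ar1 as well, were low in all groups. The summed level of 7 genes was 3.57 to 6.00 FPKM in Sham, 5.63 to 17.5 in MI and 2.56 to 10.3 in GSK. Of these markers 1 of 3 tested was called higher in MI. The part of these cells was not tested.

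Of 46 further complement genes, 21 were tested in MI against Sham. Among them 9 were called higher and 3 lower, with a median log2 difference of 0.42. Over all genes 21.9% were called higher and 21.9% lower, with a median of -0.02, so the count called lower was not above the background. Among recognition genes and proteases, 3 of 6 tested rose: the ficolin gene Fcna (1.23 ± 0.17 SE), the lectin pathway protease gene Masp1 (0.93 ± 0.19; it overlaps Rtp4 on the other strand, so its value is uncertain) and the scavenger lectin gene Colec12 (0.49 ± 0.17). The proteases that sit on C1q did not pass, although their differences had the same sign: C1ra went from 8.14 ± 1.39 to 10.9 ± 1.69 FPKM (SD, n = 5; limma adjusted p = 0.0625) and C1s1 from 13.9 ± 2.06 to 17.9 ± 2.66 FPKM (SD, n = 5; limma adjusted p = 0.11). All 4 tested receptor genes rose. They were Itgb2 (1.51 ± 0.19) and Itgam (0.74 ± 0.18), the chains of complement receptor 3, Vsig4 (0.92 ± 0.30), a macrophage receptor for C3 fragments, and Cd93 (0.67 ± 0.10), a glycoprotein of endothelium and myeloid cells; 2 of 4 endothelial markers were called higher as well, and their part was not tested. Among fluid-phase regulators Clu, which encodes clusterin, rose the most of all 21 genes (2.06 ± 0.25).

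Membrane regulators moved in both directions. Cd59a and Cd59b, which encode the inhibitors of the membrane attack complex, fell by 0.75 ± 0.14 and 0.83 ± 0.15 (limma adjusted p = 0.000818 and 0.000556), with every MI library below every Sham library. Cd59a was at 40.8 to 58.9 FPKM in Sham and 20.2 to 34.1 in MI. The pair are close paralogs, so the share of each is uncertain. Cardiomyocyte markers moved the same way in MI: 4 of 6 were called lower and 0 higher (median log2 difference -0.76), among them Ryr2 (-0.80) and Tnni3 (-0.97), and their part was not tested. Cd55, which encodes decay-accelerating factor, rose by 0.53 ± 0.19 (limma adjusted p = 0.0348), and Cr1l, which encodes the rodent regulator Crry, did not pass (-0.15 ± 0.10). In the alternative pathway the adipocyte-derived Cfd ranged from 3.94 to 58.1 FPKM within Sham and did not pass (-1.36 ± 0.77); the summed level of 4 adipocyte markers ranged from 0.666 to 9.81 FPKM there, and was lowest in the same library, Sham replicate 4. Terminal genes were low: Hc, which encodes C5, was at or under 0.0892 FPKM in every library, and C8a, C8b and C9 had no fragment in any. C7 (0.49 ± 0.22, limma adjusted p = 0.0841) did not pass, and C8g fell by 0.36 ± 0.12 but overlaps Fbxw5 on the other strand.

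**Figure D4:**
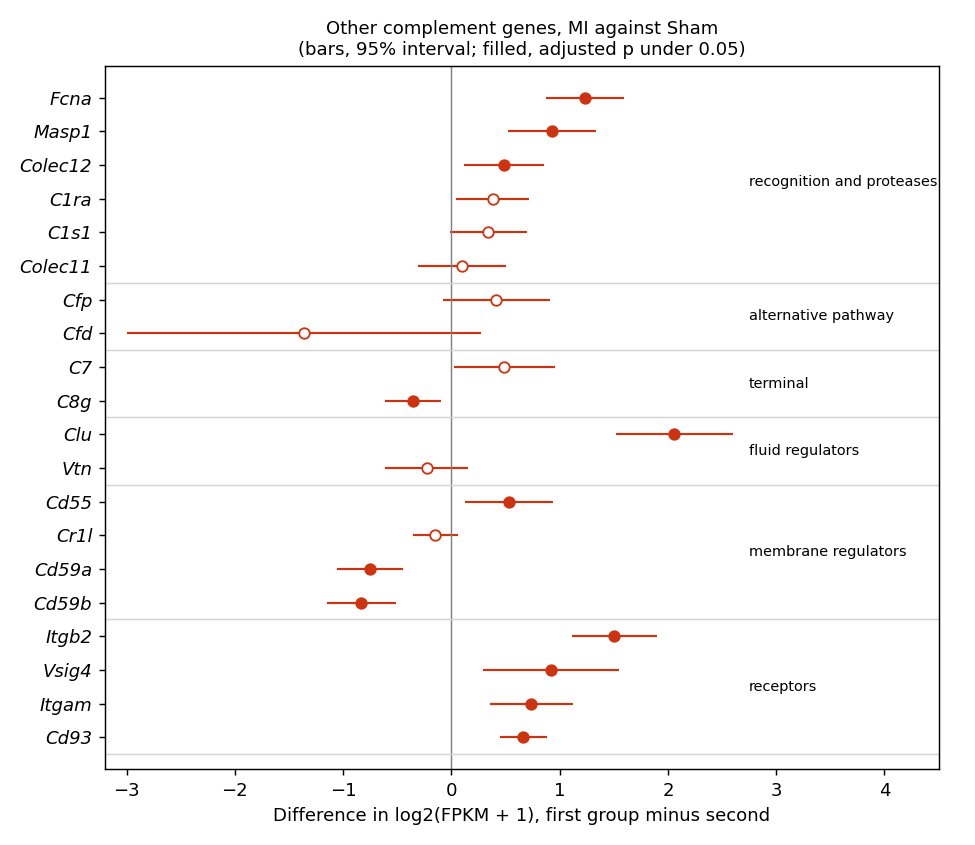
Difference in log2(FPKM + 1) between MI and Sham (horizontal axis) with its 95% interval for 20 of the 21 tested further complement genes, grouped by role; filled points passed at an adjusted p under 0.05. All 4 receptor genes lie right of 0, and Cd59a and Cd59b left of it.

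Under GSK-343 the mean of each of the 8 tested members was lower than in MI, but none passed (0 called higher and 0 lower by limma, and none by limma's voom on recovered fragments). Over all genes 0% were called, and voom called 2 higher. That 0 rests on single libraries: without MI replicate 1, 204 genes were called higher and 188 lower, and without GSK replicate 5, 154 and 134. At an unadjusted p under 0.05, 3 of the 8 were lower in GSK than in MI, C5ar1, C1qc and C1qb, against 10.1% of all genes. The median log2 difference was -0.47 over the 8 and 0.00 over all genes. This comparison and that of MI with Sham share the MI libraries. No member had all GSK libraries below all MI libraries, which 0.858% of all genes had.

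C1qb was at 156, 84.8, 75.2, 63.3 and 124 FPKM in GSK replicates 1 to 5. Replicates 1 and 5 lay within the MI range of 113 to 189 and the other 3 between the Sham and MI ranges (log2 difference to MI -0.56, 95% interval -1.02 to -0.10, limma adjusted p = 0.171). C1qa was at 152, 97.9, 56.0, 53.7 and 129 FPKM, with replicates 3 and 4 inside the Sham range of 49.9 to 69.2 (-0.51, -1.08 to 0.05, limma adjusted p = 0.275). These 2 libraries have high mitochondrial shares, as has MI replicate 4; without the 3 libraries the difference of C1qa shrank to -0.17 and those of C1qb and C1qc to -0.27 each. C1qc stood at 65.0, 44.2, 33.1, 27.8 and 57.1 FPKM (-0.55, -0.99 to -0.10, limma adjusted p = 0.167).

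C5ar1 was at 6.71, 4.20, 5.64, 4.60 and 6.85 FPKM in GSK, below MI replicates 2, 3 and 4 in all libraries and overlapping with replicates 1 and 5 (-0.45, -0.78 to -0.11, limma adjusted p = 0.144). It passed without MI replicate 1 (adjusted p = 0.0459). C3ar1 was at 6.99, 2.56, 3.55, 3.23 and 4.96 FPKM, with replicate 1 above 3 MI libraries (-0.48, -1.03 to 0.07, limma adjusted p = 0.296). Without the 3 libraries of high mitochondrial share its difference was -0.24. Serping1 was at 93.7, 52.7, 90.9, 67.8 and 82.8 FPKM (-0.28, -0.61 to 0.05, limma adjusted p = 0.304), C4b at 14.7, 10.6, 21.3, 11.8 and 17.7 FPKM (-0.31, -0.84 to 0.22, limma adjusted p = 0.484) and C3 at 57.1, 36.2, 78.0, 28.4 and 49.8 FPKM (-0.34, -1.12 to 0.44, limma adjusted p = 0.605). Without the 3 libraries the differences were -0.31 for C5ar1, -0.24 for Serping1, -0.36 for C4b and -0.47 for C3. The difference of C3 was -0.05 without MI replicate 5. Serping1, C4b and C3 overlapped with MI, and their intervals hold both 0 and differences as large as that of C1qb.

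Other markers were set beside this comparison. Of 14 macrophage markers 0 were called, and 4 were lower and 1 (Timd4) higher at an unadjusted p under 0.05 (median log2 difference -0.21). All 3 tested neutrophil markers were lower at an unadjusted p under 0.05 (median -0.85), with none called. Among 6 cardiomyocyte and 8 fibroblast markers, 1 of each was higher in GSK than in MI at an unadjusted p under 0.05 and none was called: Ryr2 by 0.53 (limma adjusted p = 0.113) and Gsn by 0.77 (limma adjusted p = 0.138). The part of these markers was not tested. Relative to macrophage markers, the C1q and receptor genes differed between GSK and MI by -0.12 to -0.23 (exact permutation p from 0.143 to 0.46, adjusted p from 0.429 to 0.584). Relative to fibroblast markers, Serping1 was lower in GSK than in MI by -0.44, as given above, and C4b by -0.47 (exact permutation p = 0.0476, adjusted p = 0.214 over 27 tests). Gsn is 1 of the 6 reference genes, and without it these differences were -0.32 and -0.35. Without the 3 libraries of high mitochondrial share they were -0.41 and -0.54.

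Of the 21 further genes 0 were called in GSK against MI, with or without the 3 libraries of high mitochondrial share. An unadjusted p under 0.05 was found for 5 of the 21 and for 21% of all genes, so this count is near the background; the values of the 5 are given as a description. Clu was at 358 to 864 FPKM in MI against 270 to 470 in GSK (log2 difference -0.73, limma adjusted p = 0.145), and Itgb2 and Fcna differed by -0.59 and -0.58. Cd59a and Cd59b, which fell in MI, were higher in GSK than in MI by 0.41 and 0.59 (limma adjusted p = 0.149 and 0.1). None of the 5 had groups without overlap.

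**Figure D5:**
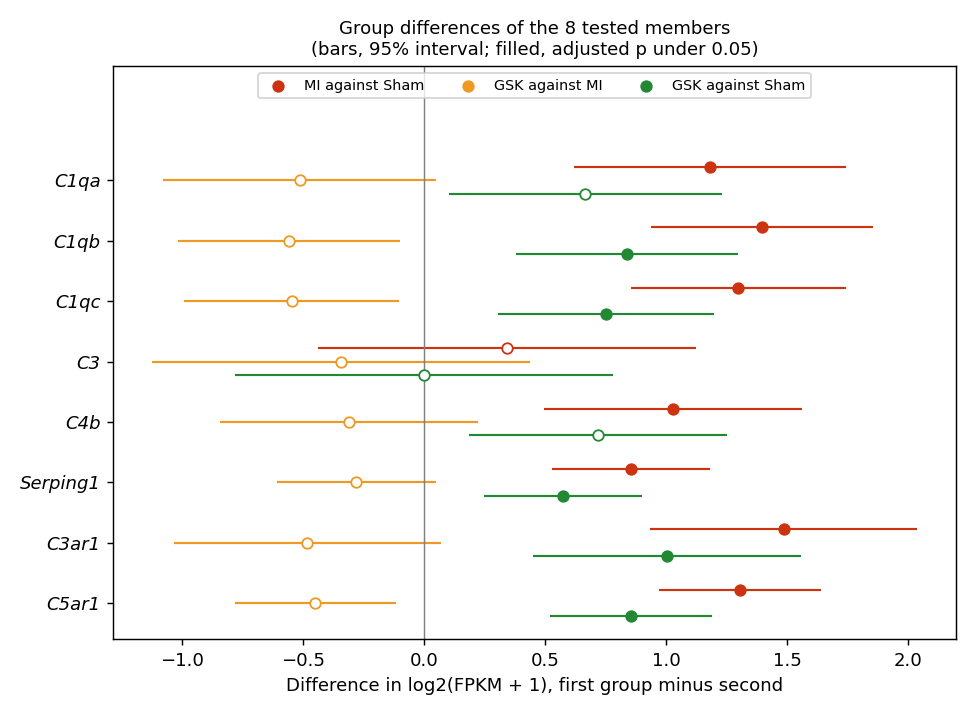
Difference in log2(FPKM + 1) for the 8 tested members in the 3 comparisons (horizontal axis), with 95% intervals; filled points passed at an adjusted p under 0.05. MI against Sham lies right of 0 for 7 filled genes, GSK against MI has no filled point, and C3 has none in any comparison.

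Against Sham, GSK hearts had 5 of the 8 members called higher (10.8% of all genes were) and 0 lower (7.58% of all genes were): C5ar1 (log2 difference 0.86 ± 0.16 SE), C3ar1 (1.00 ± 0.26), C1qb (0.84 ± 0.22), Serping1 (0.57 ± 0.15) and C1qc (0.75 ± 0.21), with limma adjusted p from 0.00287 (C5ar1) to 0.0238 (C1qc). Under the scaling without mitochondrial genes, 7 of the 8 were called higher, and over all genes 1945 were higher and 426 lower, against 1354 and 954. All GSK libraries were above all Sham libraries for 3 of them, C1qb, C3ar1 and C5ar1, as for 10.6% of all genes. C1qa (0.67 ± 0.26, limma adjusted p = 0.0883) and C4b (0.72 ± 0.25, limma adjusted p = 0.0575) did not pass, nor did C3 (0.00 ± 0.37, limma adjusted p = 0.998). The count depended on single libraries. It was 1 (C5ar1) without the mixed Sham replicates 1 and 2, and 3 without Sham replicate 4 or GSK replicate 1. It was 2 without GSK replicate 5, and 6 without the 3 libraries of high mitochondrial share, where C1qa was added. The genes called higher over all genes, 1354, also moved. They numbered 779 without the mixed Sham replicates, 850 without Sham replicate 4 and 880 without GSK replicate 1. Without GSK replicate 5 they numbered 773, and without the 3 libraries 1632. Macrophage markers were called higher in 8 of 14, and the part of these cells was not tested. Of the 21 further genes, 7 were called higher and 0 lower: Clu (1.33), Cd93 (0.73), Itgb2 (0.91), Masp1 (0.84), Cd55 (0.72), Fcna (0.65) and Colec12 (0.63).

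By level per length, the order in Sham was C1qa, C1qb, C3 and Serping1 (means of 56.5, 53.0, 51.2 and 51.0 FPKM, with overlapping libraries), then C1qc (25.4), C4b (9.19), C5ar1 (2.61), C3ar1 (1.52) and Cfb (0.0695). In MI it was C1qb (143) and C1qa (132), Serping1 (93.1), C3 (66.9) and C1qc (64.9), C4b (18.9), C5ar1 (8.11) and C3ar1 (6.60), and Cfb (0.200). In GSK it was C1qb (101) and C1qa (97.8), Serping1 (77.6), C3 (49.9) and C1qc (45.4), C4b (15.2), C5ar1 (5.60) and C3ar1 (4.26), and Cfb (0.126). In Sham each neighbouring pair among the first 4 overlapped and no later pair did. In MI and GSK each neighbouring pair from C1qb down to C1qc overlapped, as did C5ar1 and C3ar1, while C1qc, C4b, the receptors and Cfb were apart from each other. MI replicate 5 was the only MI library in which C3 was above C1qb.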

How the data were processed

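The authors deposited FPKM values for 54532 genes in 15 libraries, with gene lengths and coordinates on mm10. Per the submitters' processing notes, HISAT2, featureCounts of Subread, DESeq2 and R were used, with no role or order given; no source used here gives the annotation release or strand setting. FPKM times gene length gave whole multiples of a library step for 100% of values (within 0.01), so fragments could be recovered; depth was 21.5 M to 26.8 M per library.

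Values were transformed as log2(FPKM + 1), and the 12585 genes that reached 1 FPKM in 5 or more libraries were tested with limma 3.58.1 in R 4.3.3 (group means of all 15 libraries, eBayes with a trend, Benjamini-Hochberg over all genes, threshold 0.05). The procedure was run on simulated counts drawn independently for each gene and library. They hold no variation shared by the genes of a library, so they do not give error rates for these data. Log2 ratios (pseudocount 1) were compared by exact two-sided permutation over 252 assignments, adjusted over 27 tests to markers and 18 between members. Named genes were the members, the tested genes of a list of 46 complement genes, and for each member the 5 nearest protein-coding genes by r; some of these are not reported here. Members and lists were chosen with earlier results of these data known. No label says that equal replicate numbers pair samples. Alternatives covered pseudocount, filter, scaling, voom, a replicate block and left-out libraries.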

Additional observations from a re-analysis of the deposited data

Results flagged for a closer look

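Of 27 sets of 5 libraries (9 genes in 3 groups), 3 had a library far from the others by Dixon's criterion for 5 values (0.71); chance gives about 1 in 20. C3 stood at 135 FPKM in MI replicate 5, and the next MI library was at 68.7 FPKM. In Sham replicate 3, C1qb stood at 62.3 FPKM (next library 52.4) and C1qc at 31.5 FPKM (next library 24.7). The same Sham library had the highest summed macrophage marker level of its group, 236 FPKM.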

How the results depend on the processing

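Across 26 alternatives the count of members called higher in MI than in Sham was 7 in each, and 0 were called lower. The replicate block kept the counts at 7 (MI against Sham) and 0 (GSK against MI) and gave 4 instead of 5 for GSK against Sham, where C3ar1 lost its call (adjusted p = 0.0518); r of deviations between same-numbered libraries ran from -0.411 to 0.486, over 0.1 in 2 of 15 pairs, so the samples share only a number; calls over all genes in GSK against Sham were 924 higher and 535 lower with the block, 779 and 463 without the mixed Sham libraries and 1843 and 1634 with the 2 groups fitted alone, against 1354 and 954. In GSK against Sham, members called higher numbered 1 without the mixed Sham libraries and 2 to 6 with 1 library left out, against 5. Over all genes, 773 to 1562 were called higher there with 1 library left out. In GSK against MI, members called lower ranged from 0 to 1 and further complement genes called higher from 0 to 1 with 1 library left out. Further complement genes lower in GSK than in Sham were 1 with the 2 groups fitted alone and 0 to 2 with 1 library left out, against 0. Leaving out mitochondrial genes and equalising totals moved the median of all genes in MI against Sham from -0.02 to 0.06. The difference of C3 between GSK and Sham, 0.00, turned to 0.13 under that scaling, 0.072 under quantile normalization and -0.181 to 0.197 with 1 library left out. Relative to macrophage markers, C1qa in MI against Sham (-0.03) turned to 0.084 without the 3 libraries of high mitochondrial share (-0.107 to 0.084 with 1 library left out), C1qb (0.18) to -0.04 with a pseudocount of 0.1, and C1qc (0.09) to -0.123 and -0.012 with pseudocounts of 0.1 and 0.5. C3 relative to fibroblast markers (0.31) turned to -0.009 without Gsn and ranged from -0.016 to 0.507 with 1 library left out. The causes were not tested. For Cfb, at most 23 fragments a library limit what can be seen.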

Other observations

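Of the 25 further complement genes under the filter on low values, Itgax, Cfi, C5ar2 and C4a had all MI libraries above all Sham libraries. Cpn2 had all of them below. Among the tested genes 15.7% lay wholly above in MI, but these passed the filter and are no background for the 25. No share was computed over genes under the filter, and 7 of the 25 had no fragment in any library. The values are given as a description. The genes described were picked after their values were seen and have no test. Itgax, which encodes a chain of complement receptor 4, was at 0.141 to 0.255 FPKM in Sham, 0.457 to 1.64 in MI and 0.288 to 0.433 in GSK. All its GSK libraries were below all MI libraries, which 0.858% of the tested genes had, though Itgax is not among those. Cfi, which encodes the protease that inactivates C3b, was at 0.0181 to 0.170 FPKM in Sham, on 1 to 8 fragments a library. It was at 0.386 to 0.689 in MI, and in GSK at 0.477 in replicate 1 and 0 to 0.213 in the others. C5ar2, the second receptor gene for C5a, was at 0.260 to 0.603 FPKM in Sham and 0.653 to 1.46 in MI. Cpn2, a subunit of the carboxypeptidase that inactivates C3a and C5a, was lower in MI, at 0.102 to 0.647 FPKM against 0.803 to 1.30 in Sham.

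The number S5 stands in the names of both Sham replicate 2 (a mixture) and MI replicate 3; whether it marks the same animal is not given.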
